A study of Homo sapiens with 9 samples.

Results

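The genes of the proteasome were described in RNA sequencing of HUES9, an established human embryonic stem cell line. Members were chosen by name alone, as every symbol that begins with PSMA, PSMB, PSMC, PSMD, PSME, PSMF or PSMG followed by a number, which gave 48 of the 27730 gene symbols. They comprise 8 PSMA, 11 PSMB, 6 PSMC, 14 PSMD, 4 PSME, 1 PSMF and 4 PSMG genes. Each of the 3 groups held 3 libraries, which the labels call independent experiments. The AA147 group was at day 13 of differentiation as embryoid bodies with 10 µM AA147, a small molecule that activates ATF6, which turns on genes of the endoplasmic reticulum when proteins misfold there. The RP22 group was at day 13 of the same differentiation with 10 µM RP22, an analog of AA147 that the study's design calls inactive. The day 1 group was untreated. All groups came from the same cell line at passages 44 to 46, grown before differentiation on mitotically inactive mouse embryonic fibroblasts. A result from 1 line may not hold for others, mouse feeder reads could not be told apart from human ones in the deposited tables, and cells with DMSO alone were not analysed here. Day 13 differs from day 1 in time, culture format, medium and added compound together, and their parts cannot be told apart.

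The proteasome degrades proteins that carry ubiquitin chains. Its 20S core is a barrel of alpha rings, which gate the entrance, and beta rings, which hold the proteolytic sites, and the 19S regulator at the ends of the barrel binds, unfolds and feeds in substrates through its PSMC ATPases and PSMD subunits. Interferon can replace the catalytic beta subunits by immunoproteasome forms. The subunits are used in fixed proportions and their genes are known to be transcribed together, in mammals under the factor NFE2L1 when proteasome activity falls short, and human embryonic stem cells are known for high proteasome activity.

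The libraries held 9223027 to 10118258 reads. CPM is a gene's reads scaled to the library's total number of reads, RPKM is the authors' value per gene length, and log2 fold changes come from edgeR, which rescales the totals by TMM (trimmed mean of M-values) factors. For AA147 against RP22 these factors were 0.85 to 0.86 in AA147 libraries and 1.13 to 1.19 in RP22 libraries, so that a gene with slightly fewer CPM in AA147 libraries can have a positive fold change. The summed level of 6 pluripotency markers was 23.7 to 35.8 CPM with AA147, 297 to 625 CPM with RP22 and 5757 to 6408 CPM at day 1, with NANOG at 0 in the AA147 libraries. The 5 dividing-cell markers summed to 272 to 405 CPM with AA147, 1224 to 1249 CPM with RP22 and 1636 to 1807 CPM at day 1. Between RP22 and day 1 these markers differed in direction. Means with RP22 and at day 1 were 93.9 and 482 CPM for BUB1, 160 and 352 CPM for CCNB1 and 119 and 134 CPM for CDK1. For TOP2A they were 534 and 515 CPM, and for MKI67 334 and 243 CPM. The 5 mesenchymal markers summed to 19795 to 25691 CPM with AA147, 5035 to 15882 CPM with RP22 and 275 to 297 CPM at day 1, and replicate 1 stood apart among the RP22 libraries. Neural markers (347 to 369, 802 to 1130 and 171 to 212 CPM), endothelial markers (4.23 to 17.8, 100.5 to 202 and 41.3 to 62.8 CPM) and hepatic markers (0.298 to 2.26, 71.9 to 102 and 2.41 to 5.27 CPM), each given for AA147, RP22 and day 1 libraries, were highest with RP22. The neural sum with AA147 was nearly all TUBB3, with means of 350 CPM with AA147 and 167 CPM at day 1. The neural markers SOX1, PAX6, DCX and STMN2 averaged 0.11, 1.66, 0.96 and 2.54 CPM with AA147. At day 1 they averaged 3.82, 1.68, 8.63 and 10.8 CPM. The 6 blood and immune markers summed to 45.4 to 63.1 CPM with AA147, 33.6 to 39.7 CPM with RP22 and 18.4 to 21.4 CPM at day 1, and PTPRC, TYROBP and CD3E had no read with AA147. CD74 made up nearly all of these sums, with means of 55.4 CPM with AA147, 34.9 CPM with RP22 and 19.5 CPM at day 1. LAPTM5 and CD14 went the other way, with means of 0.036 and 0.17 CPM with AA147 and 0.90 and 0.69 CPM with RP22. The part of these shifts in cell makeup in the results was not tested, and in such bulk samples fewer cells of a type and less RNA per cell cannot be told apart.

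By class medians of level per gene length, core genes lay above regulator genes in all groups. The median RPKM of the 7 alpha genes PSMA1 to PSMA7 was 84.3 with AA147, 107 with RP22 and 218 at day 1, and that of 6 constitutive beta genes was 81.6 with AA147, 98.7 with RP22 and 206 at day 1. PSMB2 is left out of this median because the gene length implied by its counts and RPKM differed 3.06-fold between libraries. The 19S genes lay lower, with medians of 37.8, 42.0 and 95.7 RPKM for the 6 PSMC ATPases and of 54.7, 67.7 and 127 RPKM for the 14 PSMD genes with AA147, with RP22 and at day 1. The 3 PA28 genes PSME1 to PSME3 had medians of 39.2 RPKM with AA147, 44.6 RPKM with RP22 and 50.3 RPKM at day 1, and the 4 PSMG assembly chaperones had 16.9, 24.3 and 35.0 RPKM in the same order. PSME4 averaged 23.4, 26.0 and 36.1 RPKM, and PSMF1 21.7, 24.9 and 27.5 RPKM, again with AA147, with RP22 and at day 1. The 3 immunoproteasome genes had the lowest median, at 4.86 RPKM with AA147, 3.20 RPKM with RP22 and 10.7 RPKM at day 1. The highest member at day 1 was PSMB4 at 378 RPKM and the lowest with reads in every day 1 library, apart from PSMA8, was PSMB9 at 1.95 RPKM. PSMB11, the thymus-specific beta subunit, had no read in any library, which allows up to 0.296 to 0.325 CPM by a floor of 3 reads. PSMA8, the testis-specific alpha subunit, had 0, 2 and 0 reads with AA147, 1, 0 and 1 reads with RP22 and 1, 3 and 1 reads at day 1, and neither gene passed the count filter.

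At day 13 the proteasome genes were lower than at day 1 with either compound. All 48 genes together took 0.375 to 0.388% of reads with AA147 and 0.436 to 0.452% with RP22, against 0.759 to 0.904% at day 1, and the groups did not overlap. With AA147, 37 of the 46 members tested fell against day 1, which is 80.4% of them beside 40.4% of all 13761 genes tested, and 1 rose, beside 38.7% of all genes. With RP22, 42 of 46 members fell against day 1, which is 91.3% beside 35.2% of all 14558 genes, and none rose, beside 36.6% of all genes. The median log2 fold change over the members was -0.75 with AA147, against -0.04 over all genes, and -1.03 with RP22, against 0.02 over all genes. With TMM factors, at least 2-fold falls numbered 8 with AA147 (17.4% of members beside 21.5% of all genes, no more than the background). With RP22 they numbered 25 (54.3% beside 12.5%). This order turned with library totals, to 31 with AA147 (67.4%) and 15 with RP22 (32.6%). The shares of all genes with such falls under library totals were not computed. No member rose with RP22 at an unadjusted p under 0.05 in edgeR, and DESeq2 and limma-voom called 0 as well.

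**Figure D1:**
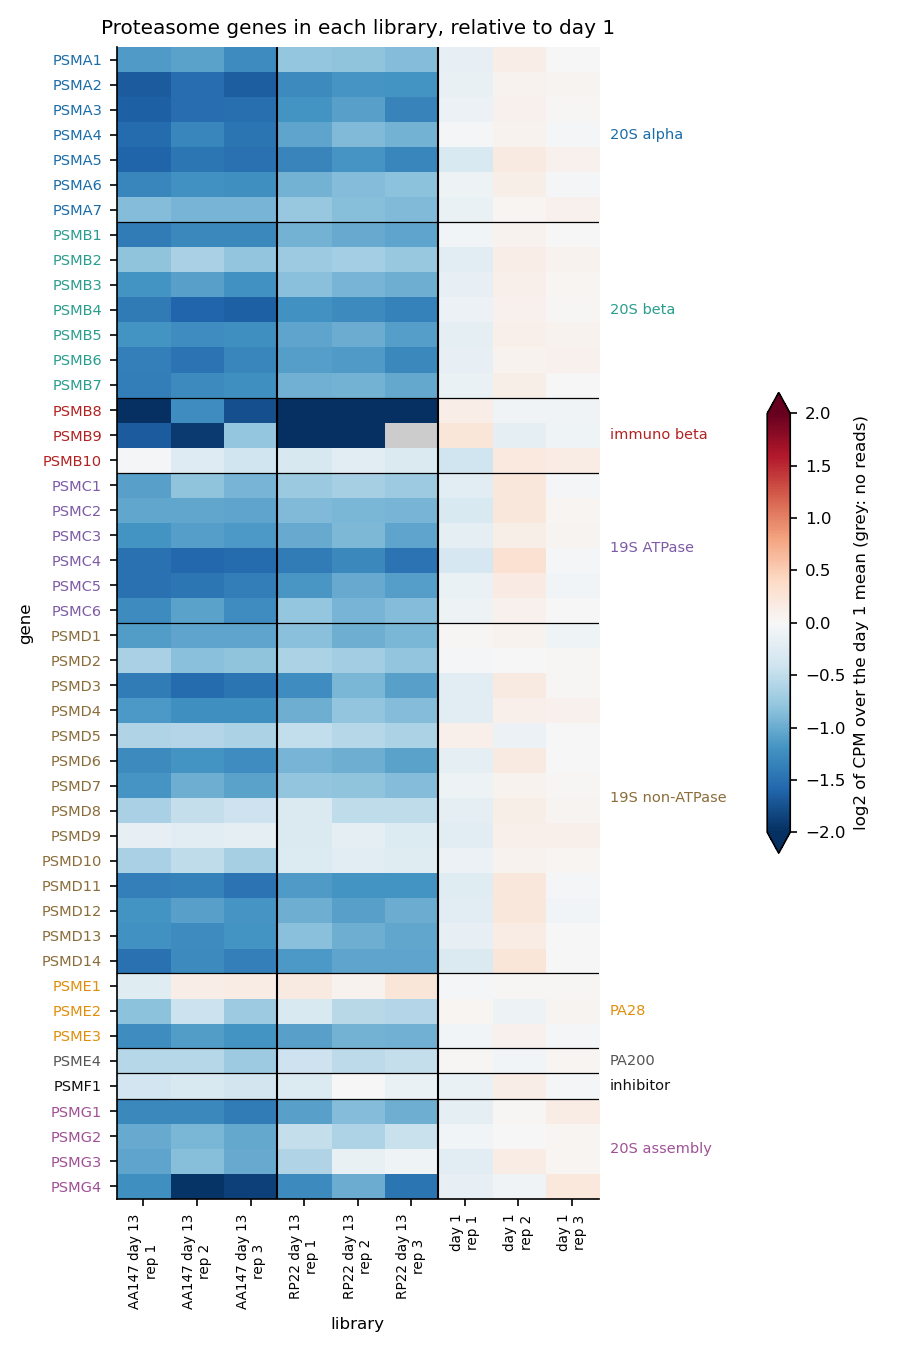
Heat map of log2 CPM relative to the day 1 mean, with 46 proteasome genes as rows grouped by role and the 9 libraries as columns, where grey marks a library with no reads. All 6 day 13 libraries lie below the day 1 mean in every row except PSME1 and PSMF1, and PSMD9 and PSMB10 lie close to it.

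The 2 comparisons with day 1 share the day 1 libraries, so each one's values are given side by side and not as independent evidence. With library totals in place of TMM factors the median over all genes moved to -0.48 for AA147 against day 1 and to 0.12 for RP22 against day 1. A scaling shifts all genes nearly alike, so the distance of the members' median below that of all genes, 0.71 with AA147 and 1.04 with RP22 under TMM, is the same under library totals by construction and is no check of the result. Counts under library totals were 43 lower and 0 higher with AA147, beside 53.9% lower and 28.1% higher among all genes, and 41 lower and 0 higher with RP22, beside 31.4% lower and 40.0% higher. Leaving out RP22 replicate 1, 42 of 46 members were lower with RP22 than at day 1, beside 35.1% of all genes.

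**Figure D2:**
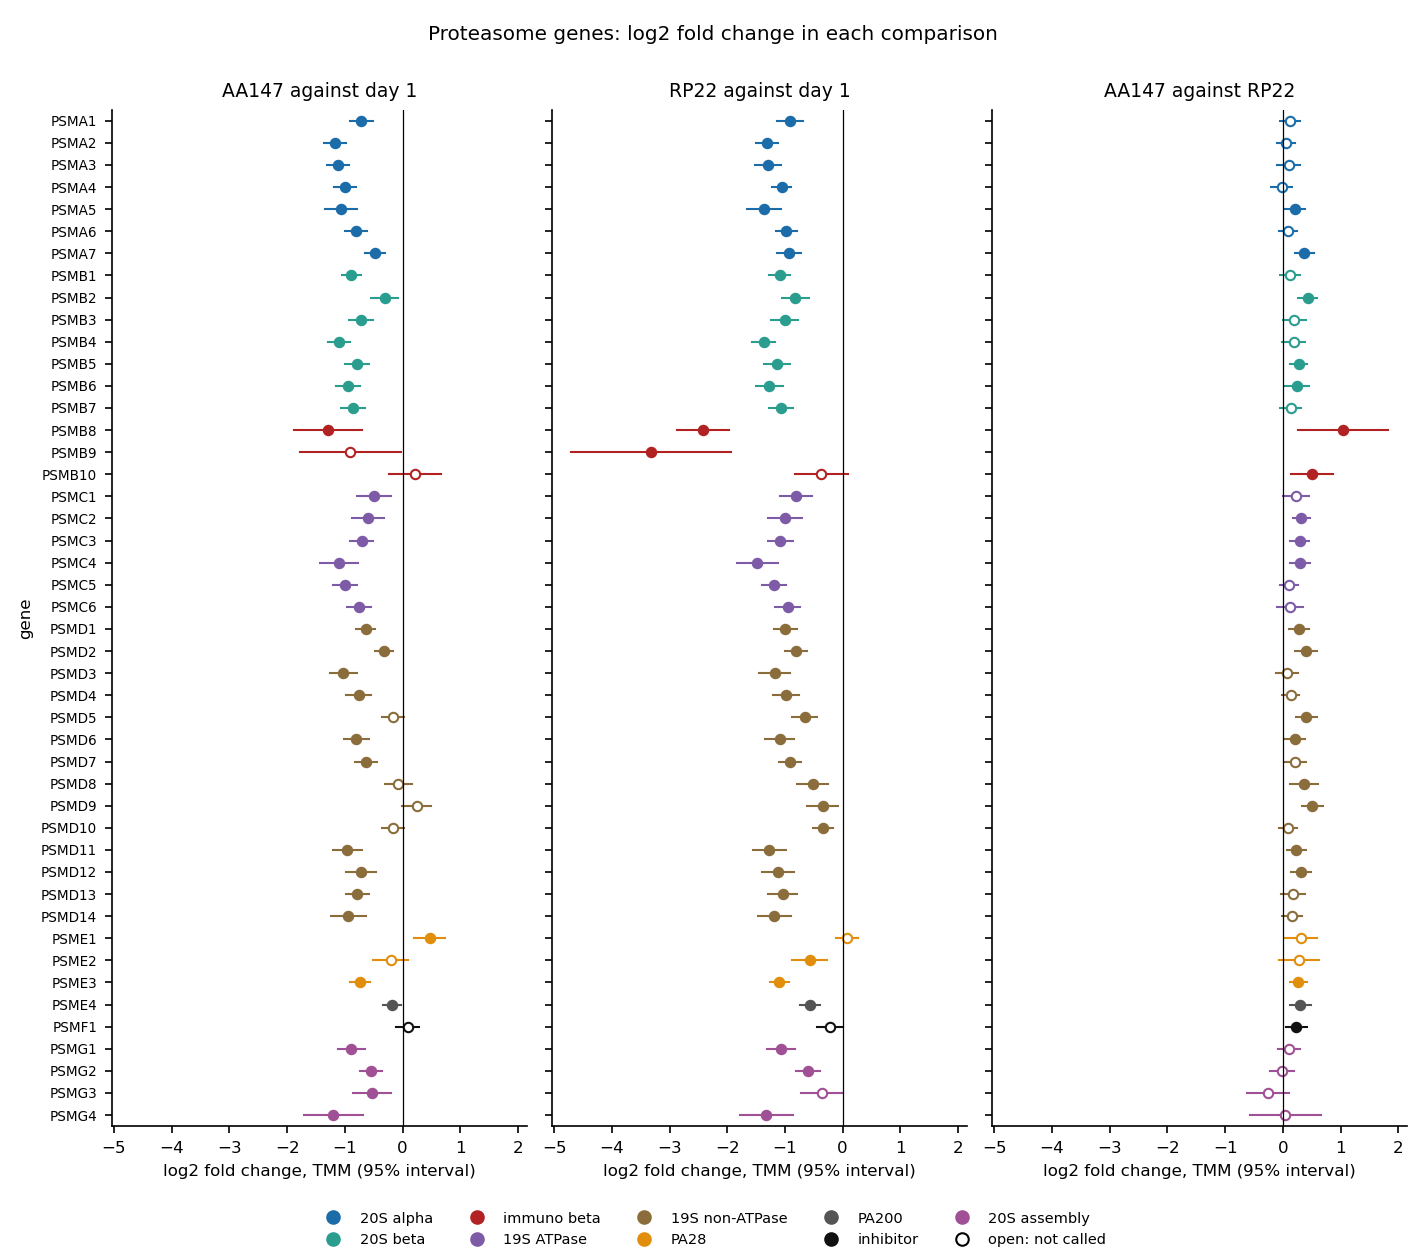
Log2 fold change with its 95% interval for each member tested, in panels for AA147 against day 1, RP22 against day 1 and AA147 against RP22, with open symbols for genes not past an adjusted p of 0.05. Filled symbols below 0 number 37 of 46 for AA147 and 42 of 46 for RP22 against day 1, and 21 of 45 lie filled above 0 for AA147 against RP22.

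The alpha rings fell as a block. All 7 of PSMA1 to PSMA7 fell with AA147, with a median of -0.99, and all 7 fell with RP22, with a median of -1.06. Beside this and the class counts that follow, 40.4% of all genes tested fell with AA147 and 35.2% with RP22. PSMA4, a ring subunit, had 111, 131 and 118 CPM with AA147, 156, 175 and 169 CPM with RP22 and 314, 340.3 and 318 CPM at day 1. All day 13 libraries lay below all day 1 libraries, and all AA147 libraries below all RP22 libraries. The log2 fold change of PSMA4 was -0.99 ± 0.085 (SE, adjusted p = 3.3e-06) with AA147 and -1.06 ± 0.070 (SE, adjusted p = 6.4e-06) with RP22, against day 1. PSMA5, which of the alpha genes fell most with RP22, had 72.9, 81.2 and 78.4 CPM with AA147, 87.9, 97.3 and 89.4 CPM with RP22 and 178, 249 and 234 CPM at day 1, and its fold change was -1.07 ± 0.12 (SE, adjusted p = 3.9e-05) with AA147 and -1.36 ± 0.13 (SE, adjusted p = 3.2e-05) with RP22. PSMA2 had 86.3, 94.5 and 87.4 CPM with AA147, 113, 120.3 and 119 CPM with RP22 and 247, 288 and 285 CPM at day 1, and its change of -1.17 was the largest fall among alpha genes with AA147. Day 13 and day 1 values of PSMA5 and PSMA2 did not overlap. The smallest falls were in PSMA7 with AA147 and in PSMA1 with RP22. PSMA7 had 133, 127 and 127 CPM with AA147, 143, 134 and 131 CPM with RP22 and 221, 249.9 and 256 CPM at day 1, with a change of -0.47 ± 0.077 (SE, adjusted p = 0.00031) with AA147. PSMA1 had 126, 131 and 116 CPM with AA147, 161, 157 and 151 CPM with RP22 and 247, 302 and 278 CPM at day 1, with a change of -0.91 ± 0.094 (SE, adjusted p = 5.8e-05) with RP22. PSMA3 and PSMA6 changed by -1.11 and -0.80 with AA147 and by -1.30 and -0.97 with RP22.

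The 7 constitutive beta genes also all fell, with a median of -0.86 with AA147 and -1.09 with RP22. PSMB5, PSMB6 and PSMB7 encode the catalytic subunits, with chymotrypsin-like, caspase-like and trypsin-like activity in that order. PSMB5 had 84.1, 82.1 and 82.7 CPM with AA147, 93.0, 97.6 and 90.7 CPM with RP22 and 169, 209 and 203 CPM at day 1. PSMB6 had 65.6, 60.7 and 68.2 CPM with AA147, 78.7, 77.5 and 69.1 CPM with RP22 and 150.4, 179 and 179 CPM at day 1. PSMB7 had 84.8, 91.7 and 94.3 CPM with AA147, 114, 115 and 109 CPM with RP22 and 201, 242 and 222 CPM at day 1. For each of these catalytic genes every day 13 library lay below every day 1 library. Their log2 fold changes were -0.78, -0.95 and -0.86 with AA147 (adjusted p = 2.9e-05, 8.7e-06 and 1.5e-05) and -1.14, -1.27 and -1.07 with RP22 (adjusted p = 2.2e-05, 1.9e-05 and 1.9e-05). PSMB4, a non-catalytic subunit, had the largest fall of the class with either compound. It had 132, 116 and 113 CPM with AA147, 151, 145 and 137 CPM with RP22 and 323, 371 and 356 CPM at day 1, with changes of -1.10 ± 0.084 (SE, adjusted p = 1.5e-06) with AA147 and -1.37 ± 0.090 (SE, adjusted p = 6.1e-06) with RP22. PSMB2, also non-catalytic, had the smallest, with 115, 127 and 115 CPM with AA147, 121, 124 and 118 CPM with RP22 and 172, 219 and 209 CPM at day 1. Its day 13 and day 1 libraries did not overlap, and its change was -0.31 ± 0.10 (SE, adjusted p = 0.019) with AA147 and -0.82 ± 0.10 (SE, adjusted p = 0.00016) with RP22. The call of PSMB2 with AA147 ended without AA147 replicate 1 or 3 or without day 1 replicate 2 or 3, and its adjusted p ranged up to 0.45 over the alternatives tried, which include RPKM values that carry the odd length named above. PSMB1, another non-catalytic subunit, had 102, 109.8 and 110.0 CPM with AA147, 139, 134 and 130.2 CPM with RP22 and 259, 281 and 267 CPM at day 1, again without overlap between day 13 and day 1. PSMB1 and PSMB3 changed by -0.89 and -0.73 with AA147 and by -1.09 and -1.01 with RP22.

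**Figure D3:**
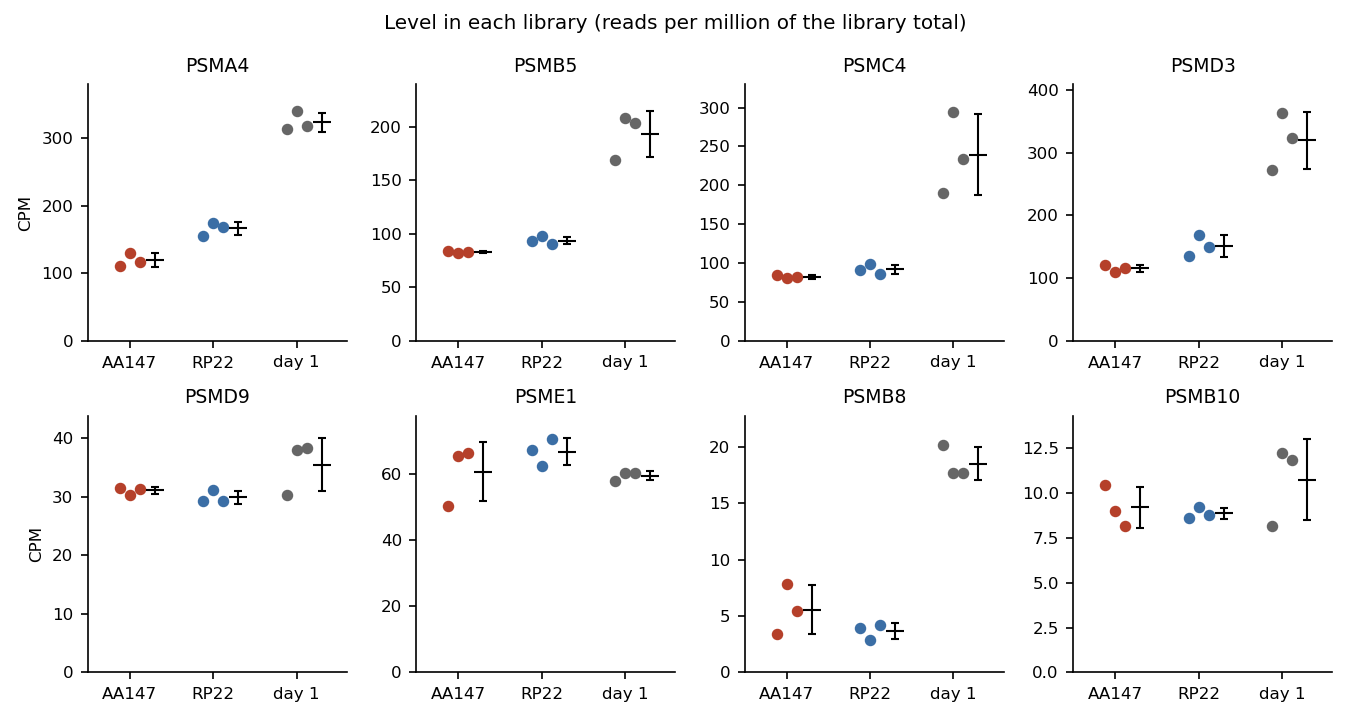
CPM of 8 members in each library, with the mean and SD of each group of 3 libraries, ordered AA147, RP22 and day 1. PSMA4, PSMB5, PSMC4 and PSMD3 are highest in the day 1 libraries, PSMD9, PSME1 and PSMB10 overlap between groups, and PSMB8 is highest at day 1 with no overlap.

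All 6 PSMC genes, the ATPases that unfold substrates, fell with either compound, with medians of -0.73 with AA147 and -1.04 with RP22. PSMC4 had 85.0, 80.2 and 82.3 CPM with AA147, 90.6, 98.5 and 86.5 CPM with RP22 and 190.5, 294 and 234 CPM at day 1. The day 1 libraries of PSMC4 were spread from 190.5 to 294 CPM but all lay above the day 13 libraries. Its fold change was -1.10 ± 0.14 (SE, adjusted p = 0.00012) with AA147 and -1.48 ± 0.16 (SE, adjusted p = 8.5e-05) with RP22, the largest of the class with each. PSMC1 had 34.0, 41.4 and 38.0 CPM with AA147, 43.2, 45.8 and 43.5 CPM with RP22 and 61.6, 84.7 and 70.4 CPM at day 1 and changed least, by -0.49 ± 0.13 (SE, adjusted p = 0.0063) with AA147 and -0.81 ± 0.12 (SE, adjusted p = 0.00044) with RP22. PSMC2 had 90.2, 90.1 and 89.1 CPM with AA147, 99.7, 98.0 and 97.2 CPM with RP22 and 149, 215 and 188 CPM at day 1, and PSMC5 had 93.2, 95.8 and 101 CPM with AA147, 117, 129.8 and 121 CPM with RP22 and 239, 293 and 253 CPM at day 1. Neither overlapped between day 13 and day 1. PSMC3 and PSMC6 changed by -0.71 and -0.75 with AA147 and by -1.08 and -0.95 with RP22.

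The PSMD genes, which form the rest of the 19S regulator together with its base-assembly chaperones, were less uniform. With AA147, 10 of 14 fell with a median of -0.68, and with RP22, 14 of 14 fell with a median of -0.99. PSMD11, a lid subunit known for its part in the high proteasome activity of human embryonic stem cells, had 121, 122 and 113 CPM with AA147, 143, 136 and 136 CPM with RP22 and 264, 366 and 308 CPM at day 1. Its groups did not overlap, and it changed by -0.96 ± 0.11 (SE, adjusted p = 3.5e-05) with AA147 and by -1.27 ± 0.12 (SE, adjusted p = 3.9e-05) with RP22. PSMD3, another lid subunit, had 121, 109 and 116 CPM with AA147, 135, 169 and 149.7 CPM with RP22 and 272, 363 and 323 CPM at day 1 and changed by -1.03 ± 0.10 (SE, adjusted p = 1.2e-05) with AA147 and by -1.18 ± 0.12 (SE, adjusted p = 5.1e-05) with RP22. PSMD14, the deubiquitinase of the lid, changed by -0.94 with AA147 and -1.18 with RP22 (adjusted p = 0.00015 and 6.9e-05). PSMD4, a ubiquitin receptor, changed by -0.76 with AA147 and -0.98 with RP22 (adjusted p = 4.6e-05 and 5.1e-05). PSMD1, PSMD2, PSMD6, PSMD7, PSMD12 and PSMD13 all fell, with changes between -0.80 in PSMD6 and -0.32 in PSMD2 with AA147, and between -1.11 in PSMD12 and -0.80 in PSMD2 with RP22.

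The chaperones PSMD5, PSMD9 and PSMD10 help assemble the 19S base and are not part of the finished particle. By median these chaperones moved less than the other PSMD genes. Their median was -0.17 with AA147, against -0.76 over the 11 other PSMD genes, and -0.34 with RP22, against -1.04 over the 11 others, a description with no test of the difference. PSMD9 had 31.6, 30.4 and 31.3 CPM with AA147, 29.2, 31.1 and 29.4 CPM with RP22 and 30.3, 37.9 and 38.3 CPM at day 1. The day 13 and day 1 libraries of PSMD9 overlapped, since day 1 replicate 1 had 30.3 CPM. Its fold change with AA147 was 0.25 ± 0.11 (SE, adjusted p = 0.063), which turned to -0.19 with library totals (adjusted p = 0.13). With RP22 it was -0.34 ± 0.12 (SE, adjusted p = 0.026), a call that ended without RP22 replicate 2 or 3, without day 1 replicate 2 or 3, with DESeq2 and with library totals (adjusted p up to 0.10). PSMD10, known as gankyrin, had 84.3, 92.5 and 83.5 CPM with AA147, 109.7, 113 and 112 CPM with RP22 and 122, 139 and 136 CPM at day 1, and changed by -0.17 ± 0.084 (SE, adjusted p = 0.091) with AA147 and by -0.34 ± 0.077 (SE, adjusted p = 0.0042) with RP22. PSMD5 had 56.7, 57.2 and 55.5 CPM with AA147, 61.0, 58.0 and 55.5 CPM with RP22 and 91.8, 79.1 and 86.8 CPM at day 1, and changed by -0.17 ± 0.084 (SE, adjusted p = 0.094) with AA147 and by -0.66 ± 0.10 (SE, adjusted p = 0.00037) with RP22. For PSMD10 and PSMD5 every day 13 library lay below every day 1 library in CPM. With AA147 both passed the test with library totals, and PSMD10 passed without day 1 replicate 1 and PSMD5 without day 1 replicate 2. PSMD8, a lid subunit, was the fourth PSMD gene without a call with AA147, at -0.070 (adjusted p = 0.54), and also passed with library totals. With RP22 PSMD8 changed by -0.52, less than the chaperone PSMD5. Small changes were therefore not particular to the chaperones.

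The alternative caps divided. PSME1 and PSME2 form the interferon-inducible PA28 cap, and PSME3 forms a separate nuclear cap. PSME1 had 50.2, 65.3 and 66.1 CPM with AA147, 67.0, 62.3 and 70.4 CPM with RP22 and 57.9, 60.2 and 60.0 CPM at day 1. Its groups overlapped in CPM, and AA147 replicate 1 was the lowest of the 9 libraries. PSME1 was the only member called higher than at day 1, with a change of 0.47 ± 0.12 (SE, adjusted p = 0.0046) with AA147, and under library totals the change was 0.028 (adjusted p = 0.82). With RP22 it changed by 0.069 ± 0.082 (SE, adjusted p = 0.47). PSME2 had 15.6, 20.5 and 16.6 CPM with AA147, 22.2, 18.7 and 18.4 CPM with RP22 and 28.2, 25.6 and 28.6 CPM at day 1, all day 13 libraries below all day 1 libraries, and changed by -0.21 ± 0.14 (SE, adjusted p = 0.18) with AA147 and by -0.57 ± 0.13 (SE, adjusted p = 0.0045) with RP22. The AA147 change of PSME2 was -0.65 under library totals (adjusted p = 0.0013). PSME3 had 131, 144 and 136 CPM with AA147, 146, 161 and 159 CPM with RP22 and 299, 331 and 302 CPM at day 1, without overlap, and fell by 0.74 with AA147 and by 1.10 with RP22 on the log2 scale (adjusted p = 1.3e-05 and 6.1e-06). PSME4, which encodes the PA200 cap, had 172, 173 and 154 CPM with AA147, 192, 178 and 183 CPM with RP22 and 259, 247 and 262 CPM at day 1. All its day 13 libraries lay below day 1, with changes of -0.18 ± 0.072 (SE, adjusted p = 0.04) with AA147 and -0.57 ± 0.077 (SE, adjusted p = 0.00026) with RP22. The AA147 call of PSME4 ended when any AA147 library or day 1 replicate 1 or 3 was left out (adjusted p up to 0.20). It also ended with DESeq2, DESeq2 size factors and a replicate block (adjusted p = 0.083, 0.063 and 0.062). Under library totals the AA147 change of PSME4 was -0.62 and passed the test. PSMF1, an inhibitor of the core in vitro, had 61.6, 65.1 and 61.7 CPM with AA147, 66.1, 80.8 and 72.7 CPM with RP22 and 73.2, 87.9 and 78.8 CPM at day 1, with overlap between RP22 and day 1, and passed with neither compound (0.089 with AA147, adjusted p = 0.38, and -0.23 with RP22, adjusted p = 0.067). Under library totals PSMF1 was -0.35 with AA147 (adjusted p = 0.0049), and with RP22 it passed without day 1 replicate 1.

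The PSMG genes encode chaperones that assemble the core. All 4 fell with AA147 and 3 of 4 with RP22, beside 40.4% and 35.2% of all genes, with medians of -0.71 and -0.84. PSMG1 had 33.1, 33.0 and 30.4 CPM with AA147, 37.9, 44.1 and 41.0 CPM with RP22 and 70.5, 82.0 and 88.9 CPM at day 1, with no overlap between groups. PSMG4 had 5.59, 3.36 and 3.58 CPM with AA147, 5.39, 6.53 and 4.74 CPM with RP22 and 11.7, 12.3 and 15.1 CPM at day 1, all day 13 libraries below all day 1 libraries, and changed by -1.20 ± 0.23 (SE, adjusted p = 0.00081) with AA147 and by -1.32 ± 0.20 (SE, adjusted p = 0.00047) with RP22. PSMG3 had 9.89, 11.3 and 10.1 CPM with AA147, 13.5, 18.5 and 19.2 CPM with RP22 and 17.7, 22.6 and 21.1 CPM at day 1, so that RP22 and day 1 libraries overlapped, and changed by -0.53 ± 0.15 (SE, adjusted p = 0.0081) with AA147 and by -0.36 ± 0.16 (SE, adjusted p = 0.069) with RP22. Without day 1 replicate 1 the RP22 change of PSMG3 passed the test.

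The immunoproteasome genes encode replacements of the catalytic subunits, PSMB8 for PSMB5, PSMB9 for PSMB6 and PSMB10 for PSMB7. The sequences around their starts are printed here because these genes are known to answer interferon through promoter elements. They are followed by PSME1 and by PSMD9, the PSMD gene with the highest fold change with AA147 under TMM. PSME1 was the only member called higher than at day 1, with AA147 under TMM, a call that ended with library totals. Each run holds the 250 bases before a RefSeq transcript start and the first 20 after it on GRCh38.p14, read in the direction of transcription. Capitals mark the letters GAAANNGAAA (the core of the interferon-stimulated response element), TGACNNNGC (the core of the antioxidant response element bound by NFE2L1 and NFE2L2 with small MAF proteins) and CCAAT, each on either strand. The authors' counts were made on GRCh37.p13, so these coordinates hold for the sequences alone.
PSMB8 (chr6:32844028-32844297, minus strand): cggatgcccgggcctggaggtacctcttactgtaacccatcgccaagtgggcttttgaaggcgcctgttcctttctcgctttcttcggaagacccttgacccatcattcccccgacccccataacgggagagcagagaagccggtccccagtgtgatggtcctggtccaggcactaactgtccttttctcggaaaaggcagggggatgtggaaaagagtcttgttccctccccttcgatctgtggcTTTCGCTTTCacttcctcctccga
PSMB9 (chr6:32853942-32854211, plus strand): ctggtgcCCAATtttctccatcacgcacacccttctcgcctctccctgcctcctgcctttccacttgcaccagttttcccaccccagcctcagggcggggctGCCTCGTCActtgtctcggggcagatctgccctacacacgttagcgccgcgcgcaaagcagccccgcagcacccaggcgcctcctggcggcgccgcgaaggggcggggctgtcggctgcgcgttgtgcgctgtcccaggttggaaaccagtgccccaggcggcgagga
PSMB10 (chr16:67936831-67937100, minus strand): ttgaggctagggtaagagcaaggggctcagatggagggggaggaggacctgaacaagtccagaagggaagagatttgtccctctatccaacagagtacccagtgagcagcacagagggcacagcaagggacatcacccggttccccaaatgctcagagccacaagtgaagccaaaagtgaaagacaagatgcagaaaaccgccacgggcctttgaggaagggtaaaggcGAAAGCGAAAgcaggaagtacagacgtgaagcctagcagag
PSME1 (chr14:24135944-24136213, plus strand): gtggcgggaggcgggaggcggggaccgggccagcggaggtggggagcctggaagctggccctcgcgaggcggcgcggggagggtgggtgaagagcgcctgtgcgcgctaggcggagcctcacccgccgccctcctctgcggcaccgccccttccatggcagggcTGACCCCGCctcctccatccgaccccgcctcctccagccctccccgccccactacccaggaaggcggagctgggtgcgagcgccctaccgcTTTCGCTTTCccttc
PSMD9 (chr12:121888540-121888809, plus strand): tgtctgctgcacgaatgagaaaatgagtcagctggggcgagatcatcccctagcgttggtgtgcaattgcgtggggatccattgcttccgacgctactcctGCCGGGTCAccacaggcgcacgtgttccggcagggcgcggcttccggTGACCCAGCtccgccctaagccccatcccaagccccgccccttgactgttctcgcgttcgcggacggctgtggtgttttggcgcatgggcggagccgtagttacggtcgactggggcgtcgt

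The interferon core lay at -4 to 6 in PSMB8, at -21 to -12 in PSMB10 and at 6 to 15 in PSME1, where 1 is the first transcribed base and -1 the base before it. PSMB9 had none in this window, but an antioxidant core at -148 to -140 and a CCAAT at -243 to -239. PSME1 also had an antioxidant core at -86 to -78, and PSMD9 had 2, at -149 to -141 and -102 to -94. PSMB8 has a further RefSeq start whose window held none of these letters. A match describes letters and not a bound site.

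PSMB8 had 32, 72 and 55 reads with AA147, 38, 27 and 43 reads with RP22 and 201, 168 and 164 reads at day 1. That is 3.44, 7.81 and 5.47 CPM with AA147, 3.94, 2.89 and 4.25 CPM with RP22 and 20.2, 17.7 and 17.6 CPM at day 1, so all day 13 libraries lay below day 1, while AA147 and RP22 libraries overlapped. PSMB8 fell by 1.29 ± 0.26 (SE) with AA147 and by 2.42 ± 0.20 (SE) with RP22 on the log2 scale (adjusted p = 0.0013 and 1.7e-05). Against RP22 the AA147 libraries were higher by 1.04 ± 0.34 (SE, adjusted p = 0.027), with a 95% interval of 0.26 to 1.82. That call ended without AA147 replicate 2 or 3 or without RP22 replicate 2 or 3 (adjusted p of 0.051 to 0.11), and with library totals (0.59, adjusted p = 0.14). An antisense gene, PSMB8-AS1, overlaps PSMB8 in RefSeq, and since the strand of the libraries is not stated in the sources used here, reads of the pair cannot be told apart.

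PSMB9 had 6, 5 and 12 reads with AA147, 3, 3 and 0 reads with RP22 and 24, 17 and 18 reads at day 1, and the groups did not overlap. It fell by 3.32 ± 0.60 (SE) on the log2 scale with RP22 (adjusted p = 0.0013), a value that rests on 6 reads in the RP22 libraries. With AA147 it changed by -0.91 ± 0.39 (SE, adjusted p = 0.055), which passed without AA147 replicate 3 and with library totals (adjusted p = 0.0093). TAP1, the peptide transporter gene that lies head to head with PSMB9, had 54.1, 63.0 and 61.3 CPM with AA147, 15.1, 19.9 and 16.1 CPM with RP22 and 27.1, 26.9 and 25.4 CPM at day 1. TAP1 was higher with AA147 than at day 1 by 1.61 and lower with RP22 by 0.73 on the log2 scale (adjusted p = 3.3e-07 and 0.00093).

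PSMB10 had 10.4, 8.999 and 8.16 CPM with AA147, 8.60, 9.20 and 8.80 CPM with RP22 and 8.14, 12.2 and 11.8 CPM at day 1, from 81 to 116 reads a library. Its groups overlapped, and against day 1 it changed by 0.21 ± 0.20 (SE, adjusted p = 0.34) with AA147, or -0.22 with library totals (adjusted p = 0.33), and by -0.37 ± 0.20 (SE, adjusted p = 0.13) with RP22. Without day 1 replicate 1 the RP22 change passed the test (-0.54, adjusted p = 0.020). Against RP22 the AA147 libraries were higher by 0.50 ± 0.16 (SE, adjusted p = 0.024), a call that ended with DESeq2, without AA147 replicate 1 or 2, without RP22 replicate 2 or 3 and with library totals (0.050, adjusted p = 0.79, the highest over the alternatives).

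Ratios of RPKM within a library do not depend on how libraries are scaled, and 7 of them were compared by an exact two-sided permutation test, in which 3 against 3 libraries cannot go below p = 0.1. They do depend on the gene length implied by counts and RPKM. For PSMB5 that length differed 1.21-fold between libraries (1.14 to 1.38 kb), which enters the PSMB8 to PSMB5 ratio. The ratio of PSMB10 to PSMB7 was 12.4, 9.90 and 8.73% with AA147, 7.61, 8.09 and 8.16% with RP22 and 4.08, 5.10 and 5.37% at day 1. The 3 groups did not overlap in this ratio, with p = 0.1 for each pair of groups by the exact test (adjusted p = 0.175). The log2 difference of this ratio was 1.09 for AA147 against day 1, 0.72 for RP22 against day 1 and 0.36 for AA147 against RP22. The ratio of PSMB8 to PSMB5 was 4.62, 11.1 and 8.18% with AA147, 5.24, 3.21 and 4.78% with RP22 and 12.8, 8.92 and 9.89% at day 1. RP22 libraries lay below all day 1 libraries (log2 difference -1.27, exact permutation p = 0.1), whereas AA147 libraries overlapped with both other groups (exact p = 0.4 against day 1 and 0.3 against RP22). The ratio of PSMB9 to PSMB6 was 0.818, 0.742 and 1.46% with AA147, 0.329, 0.446 and 0% with RP22 and 1.33, 0.834 and 0.900% at day 1. AA147 and day 1 libraries overlapped (log2 difference -0.06, exact p = 0.7), a difference whose sign turned without AA147 replicate 1 or 2 or without day 1 replicate 1, and RP22 libraries were the lowest.

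**Figure D4:**
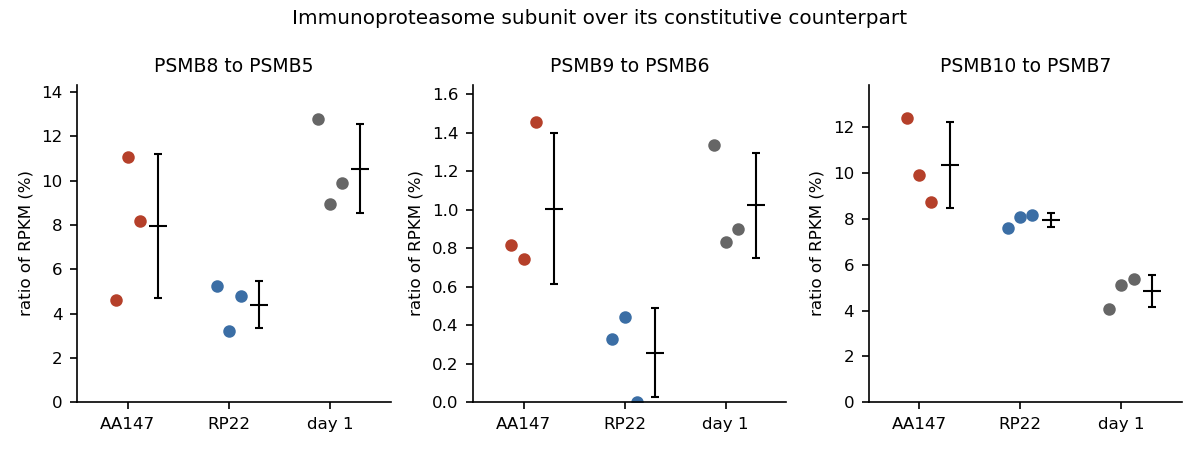
RPKM of each immunoproteasome gene as a percentage of the constitutive gene it replaces, per library, ordered AA147, RP22 and day 1 within each pair. The PSMB10 to PSMB7 ratio is 8.73 to 12.4% with AA147, 7.61 to 8.16% with RP22 and 4.08 to 5.37% at day 1, while the PSMB8 and PSMB9 ratios of AA147 and day 1 libraries overlap.

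AA147 and its analog RP22 were compared at the same dose of 10 µM and the same day, as the only pair of compounds in the series. With TMM factors, 21 of the 45 members tested were higher with AA147, which is 46.7% beside 29.8% of all 14293 genes, and none was lower, beside 32.2% of all genes. No member was lower at an unadjusted p under 0.05 in edgeR, and DESeq2 and limma-voom called 16 and 21 higher and 0 lower. The differences were small, with a median of 0.21 over the members and -0.03 over all genes. This result turned with the scaling. With library totals 0 members were higher and 28 lower, beside 13.3% higher and 59.7% lower among all genes, and the medians were -0.24 over the members and -0.49 over all genes. With upper-quartile scaling, an alternative chosen after the data were seen, 7 were higher and 0 lower, beside 22.9% higher and 40.5% lower among all genes, with medians of 0.06 over the members and -0.19 over all genes. With TMM 42 of 45 members lay above 0, and 39 of the 45 turned below 0 with library totals. The direction relative to RP22 in absolute terms therefore cannot be told from these libraries. Relative to all genes, the members' median lay 0.25 above the median of all genes and 44 of 45 members lay above it, PSMG3 being the exception, a distance that no scaling can change because it shifts all genes nearly alike.

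**Figure D5:**
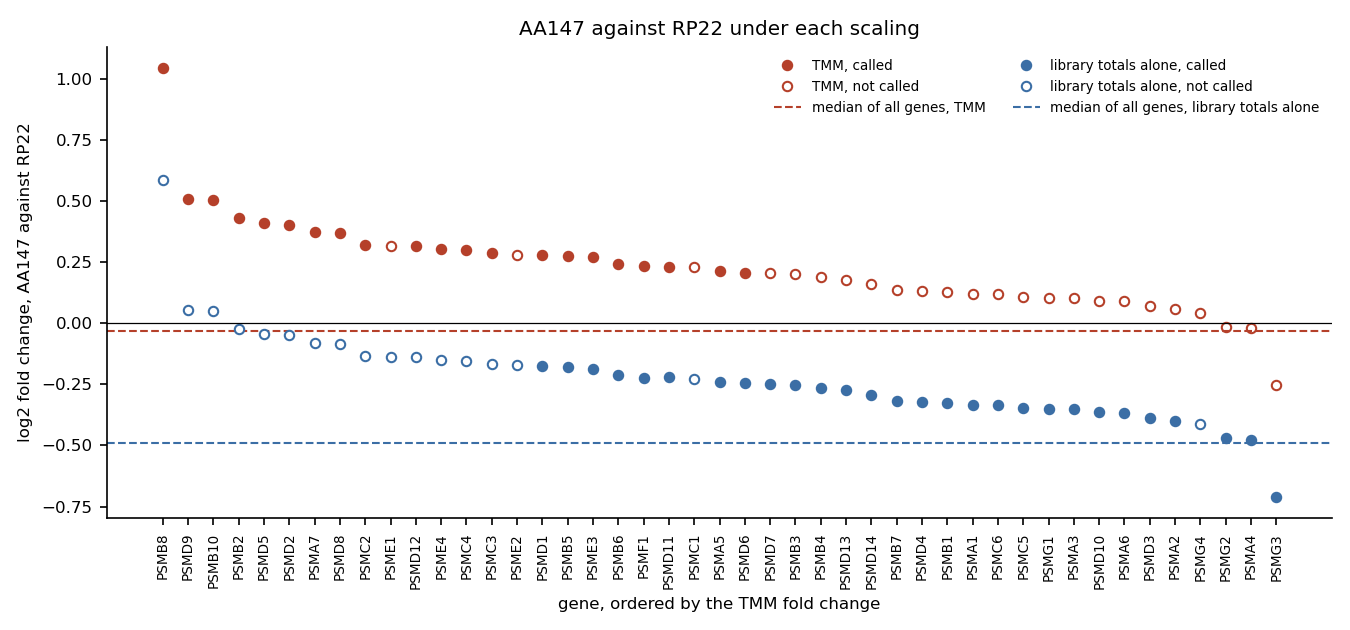
Log2 fold change of the members for AA147 against RP22 under TMM factors and under library totals, with the median over all genes as a dashed line in each. The points move from around 0.21 to around -0.24, and their distance from the dashed line, near 0.25, is the same by construction.

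By role, with TMM factors, 5 of the 14 constitutive core genes were higher with AA147 than with RP22 (35.7%, median 0.16) and 13 of the 24 PSMC, PSMD and PSME genes (54.2%, median 0.28), beside 29.8% of all genes, so that the share of core genes was near the background. With library totals none of these was higher, and 12 of the 14 core genes and 12 of the 24 others were lower, beside 59.7% of all genes. With TMM 2 of 7 in the alpha class were higher, no more than the background, with PSMA7 at 0.37 ± 0.073 (SE, adjusted p = 0.0029) and PSMA4 lowest at -0.020 ± 0.080 (SE, adjusted p = 0.85), whose 95% interval ran from -0.20 to 0.17. In the beta class 3 of 7 were higher, with PSMB2 at 0.43 ± 0.073 (SE, adjusted p = 0.0014), PSMB5 at 0.28 ± 0.064 (SE, adjusted p = 0.0064) and PSMB6 at 0.24 ± 0.088 (SE, adjusted p = 0.044), while PSMB1 was lowest at 0.13 ± 0.075 (SE, adjusted p = 0.18). The PSMB6 call ended without AA147 replicate 1 or 3, without RP22 replicate 2 or 3 and with DESeq2 (adjusted p of 0.074 to 0.13), and with upper-quartile scaling (adjusted p = 0.39), and the difference was -0.21 with library totals. Among ATPases 3 of 6 were higher, from PSMC2 at 0.32 ± 0.064 (SE, adjusted p = 0.0031) to PSMC5 at 0.11 ± 0.068 (SE, adjusted p = 0.2) (not called). Among PSMD genes 8 of 14 were higher, from PSMD9 at 0.51 ± 0.078 (SE, adjusted p = 0.0008) to PSMD3 at 0.068 ± 0.083 (SE, adjusted p = 0.49), where PSMD3 was not called. PSMD9 had about equal CPM with both compounds, as given above, and under library totals its difference was 0.055 (adjusted p = 0.56). PSME3 was at 0.27 and PSME4 at 0.30 (adjusted p = 0.0086 and 0.01), whereas PSME1 at 0.32 (adjusted p = 0.051) and PSME2 at 0.28 (adjusted p = 0.14) were not called, though both passed without RP22 replicate 1. None of the 4 PSMG genes was called, and their median was 0.012, with PSMG3 at -0.25 (adjusted p = 0.2) and PSMG1 at 0.10 (adjusted p = 0.29).

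Single libraries moved these counts. Without RP22 replicate 1, the library that stood apart in its markers, 29 members were higher and 1, PSMG3, was lower, beside 31.7% and 33.2% of all genes. Without RP22 replicate 3, 13 of 45 were higher, and without replicate 1 of both groups 34 of 45 were. The shares of all genes called in these fits were not computed, so these counts have no background beside them. In each AA147 library the median member stood at 43.2 to 46.7% of its day 1 mean by library totals and at 57.5 to 64.3% by TMM over all 9 libraries. In each RP22 library it stood at 52.1 to 53.2% by library totals and at 47.7 to 51.3% by TMM. Both ranges of AA147 lay apart from those of RP22, but in opposite order under the 2 scalings.

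Genes that act with the proteasome were read from 4 lists. Of 12 partners and assembly factors, 8 fell and 1 rose with AA147 against day 1 (median -0.50, against -0.04 over all genes), beside 40.4% lower and 38.7% higher among all genes, and 9 fell and 1 rose with RP22 (median -0.79, against 0.02 over all genes), beside 35.2% and 36.6%. POMP, which matures the core, had 91.7, 106 and 93.7 CPM with AA147, 96.2, 91.4 and 86.1 CPM with RP22 and 165, 184 and 177 CPM at day 1, and changed by -0.41 with AA147 and -1.03 with RP22 (adjusted p = 0.0016 and 2.2e-05). ADRM1, a ubiquitin receptor of the 19S regulator, changed by -0.74 with AA147 and -1.41 with RP22 (adjusted p = 0.0052 and 0.00032). The gene that rose in both was UBE3C, a proteasome-bound ubiquitin ligase, with 127, 132 and 130.0 CPM with AA147, 112, 117 and 99.3 CPM with RP22 and 79.4, 73.2 and 72.0 CPM at day 1. UBE3C did not overlap between any of the groups, and changed by 1.23 with AA147 and 0.45 with RP22 (adjusted p = 3.4e-07 and 0.003). Against RP22, 7 of the 12 were higher with AA147 and 1 lower (median 0.38, against -0.03 over all genes), beside 29.8% higher and 32.2% lower among all genes, but 1 higher and 5 lower under library totals, beside 13.3% and 59.7%. The lower one, PAAF1, a 19S assembly factor, had 12.04, 13.3 and 11.6 CPM with AA147, 24.0, 28.8 and 26.2 CPM with RP22 and 29.8, 30.7 and 34.3 CPM at day 1, and its difference was -0.64 with TMM and -1.10 with library totals (adjusted p = 0.0016 and 0.00014).

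Of 12 genes that control proteasome transcription, 8 rose and 0 fell with AA147 against day 1 (median 0.73), beside 38.7% higher and 40.4% lower among all genes, while 5 rose and 4 fell with RP22 (median 0.15), near the 36.6% and 35.2% of all genes. Under library totals 8 rose and 4 fell with AA147, beside 28.1% and 53.9% of all genes. NFE2L1 had 441, 434 and 427 CPM with AA147, 301, 294 and 319 CPM with RP22 and 325, 398 and 392 CPM at day 1. AA147 libraries of NFE2L1 lay above all others, and RP22 libraries lay below all day 1 libraries. NFE2L1 was higher with AA147 than with RP22 by 0.96 with TMM and 0.51 with library totals (adjusted p = 2.1e-05 and 0.00029). Against day 1 it changed by 0.66 with AA147 (adjusted p = 7.8e-05) and by -0.38 with RP22 (adjusted p = 0.0059). With library totals the AA147 change was 0.22 (adjusted p = 0.037), and in the limma fits of RPKM it was 0.15 to 0.16 and did not pass (adjusted p of 0.14 to 0.17). NFE2L2, its stress-responsive relative, had 108, 126 and 119 CPM with AA147, 97.1, 78.8 and 86.6 CPM with RP22 and 65.6, 87.4 and 74.0 CPM at day 1, and MAFG, a small MAF partner, had 54.9, 61.0 and 59.2 CPM with AA147, 44.5, 38.1 and 38.6 CPM with RP22 and 60.5, 79.5 and 72.6 CPM at day 1. Both were higher with AA147 than with RP22 without overlap, by 0.88 and 0.98 with TMM and by 0.43 and 0.53 with library totals. The largest changes against day 1 were in IRF1, a factor induced by interferon, at 2.78 with AA147 and 2.08 with RP22, followed with AA147 by MAFF at 2.38 (1.70 with RP22) and with RP22 by NFE2L3, a relative of NFE2L1, at 2.07 (1.51 with AA147). Against RP22, 10 of 12 were higher and 1 lower with TMM (median 0.48), beside 29.8% and 32.2% of all genes, but 3 higher and 2 lower with library totals, beside 13.3% and 59.7%. The lower one with TMM was NFE2L3, at -0.64. That call ended in edgeR without AA147 replicate 2 or 3 or without any 1 of the RP22 replicates (adjusted p of 0.060 to 0.099).

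Of 15 genes of ubiquitin supply and delivery, 6 rose and 4 fell with AA147 against day 1 (median 0.15), near the 38.7% of all genes that rose and below the 40.4% that fell, and 3 rose and 9 fell under library totals, beside 28.1% and 53.9%. With RP22 1 rose and 8 fell (median -0.22), beside 36.6% and 35.2% of all genes. RPS27A, a ubiquitin and ribosomal protein fusion, changed by -0.83 with AA147 and -0.90 with RP22. The ubiquitin genes share coding sequence, so the split of reads between them is uncertain. With AA147 against RP22, 11 of 15 were higher and 0 lower with TMM, beside 29.8% and 32.2% of all genes, and 3 were higher and 7 lower with library totals, beside 13.3% and 59.7%. STUB1, a ubiquitin ligase that works with chaperones, was higher with AA147 by 0.85 with TMM and by 0.40 with library totals.

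Of 18 interferon and antigen presentation genes, 14 of 17 tested rose and 1 fell with AA147 against day 1 (median 1.24), beside 38.7% and 40.4% of all genes, and 8 rose and 6 fell with RP22 (median 0.19), beside 36.6% and 35.2% of all genes. IFI6, an interferon-induced gene, changed by 3.67 with AA147 and by 3.27 with RP22. Against RP22, 11 of 16 were higher with AA147 and 0 lower with TMM (median 0.50), beside 29.8% and 32.2% of all genes, and 6 higher and 0 lower with library totals, beside 13.3% and 59.7%. The largest difference was in TAP1, at 2.26 with TMM and 1.80 with library totals (adjusted p = 7.3e-06 and 2.3e-05), followed by TAP2 at 1.58 and TAPBP at 1.35, which load peptides cut by the proteasome onto MHC class I molecules. HLA genes are near-identical copies and share reads, so HLA-B, at 0.96, is uncertain.

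RefSeq promoter windows, from 250 bases before to 50 after each start, were found for 42 of the 48 members, in 51 windows. PSMA7, PSMB1, PSMB6, PSMB7, PSMD4 and PSMG3 had none in the table used. The antioxidant core TGACNNNGC was in 15 of the 51 member windows (29.4%) and in 13.35% of all 35116 windows. CCAAT was in 20 windows (39.2%), against 34.6% of all windows. The interferon core GAAANNGAAA was in 7 windows (13.7%), against 3.57% of all windows, and the genes were PSMA4, PSMB4, PSMB8, PSMB10, PSME1, PSME2 and PSMG4. The 15 genes with an antioxidant core included PSMC4, PSMD3 and PSMD12 as well as PSMD5, PSMD9 and PSME1. Genes that fell most and genes that fell least at day 13 were thus both among them.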

How the data were processed

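RNA was sequenced from 9 libraries of HUES9 cells in 3 groups of 3. Expected counts per gene and RPKM per gene were deposited by the authors as tables of all libraries, and genome build GRCh37.p13 is named per the submitters' processing notes. Aligner, read counter and library strand: not given in the sources used here. In the deposited counts 41.4% of values held a floor of 0.05, taken as 0, and 0.914% were fractional and were rounded, none of them in the members. The 42 symbols on 2 rows were summed. In the deposited RPKM table the floor of 0.002 was taken as 0.

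Each comparison was fitted on its own 6 libraries in R 4.3.3 with edgeR 4.0.16 (filterByExpr, TMM, robust quasi-likelihood F test), with Benjamini-Hochberg adjustment over all genes tested and a threshold of 0.05. The SE is the log2 fold change divided by the square root of F. RPKM ratios were tested by exact permutation (scipy 1.17.1), adjusted over 7 tests. The p-values measure the spread between 3 samples per group, which the labels call independent experiments. The 95% intervals of fold changes come from the same fit and carry that spread, and floors cover counting error only.

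Alternatives were DESeq2 1.42.0, limma-voom 3.58.1, DESeq2 size factors, library totals, upper-quartile scaling (chosen after seeing the data), no count filter, unrounded counts, 1 fit of all 9 libraries, a replicate block, limma on log2(RPKM + 0.1) with a minimum of 0.5 RPKM or none and on log2(RPKM + 1), and each library left out.

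Members were matched by name alone, but this rule, the lists and the genes named were chosen with earlier results of these data known. Values per library are given for members with special roles, for the highest and the lowest fold change in each class and comparison, and for up to 4 genes of each list with the largest changes past the test, some of which are not reported here. The treatment of reads shared with pseudogene copies is unknown.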

Additional observations from a re-analysis of the deposited data

How the results depend on the processing

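The falls against day 1 kept their direction under every alternative at the level of counts and medians, and depth limited PSMB9, PSMB11 and PSMA8. For AA147 against RP22 the direction depended on the scaling, and the cause was not tested. With library totals, beside 13.3% higher and 59.7% lower among all genes, 0 members were higher and 28 lower (median -0.24). With limma on log2(RPKM + 0.1) these values were 1, 28 and -0.24, on log2(RPKM + 1) they were 1, 28 and -0.23, and without a filter 0, 23 and -0.24. Upper-quartile scaling gave 7 higher (median 0.061), and leaving out replicate 1 of both groups gave 34. Leaving out 1 library each gave 13 to 29 higher, 0 to 1 lower and medians of 0.18 to 0.27. Where the text gives no share of all genes for an alternative fit, as for the RPKM fits, that share was not computed. Counts of members from such fits have no background beside them.

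For AA147 against RP22, 39 of 45 members turned below 0 with library totals and in each RPKM fit, and 13 with upper-quartile scaling. Of the genes named by rule and reported here, those that turned and passed the test under TMM or the alternative are given in the order library totals, log2(RPKM + 0.1) with or without a filter, and log2(RPKM + 1). They were PSMA7 (-0.081, -0.070 and -0.070), PSMB1 (-0.33, -0.33 and -0.32), PSMB2 (-0.024, -0.69 and -0.68), PSMB5 (-0.18, -0.22 and -0.22), PSMB6 (-0.21, -0.21 and -0.21), PSMB7 (-0.32, -0.32 and -0.32), PSMC2 (-0.13, -0.14 and -0.14), PSMC5 (-0.35, -0.35 and -0.34), PSMD3 (-0.39, -0.38 and -0.38), PSME3 (-0.19, -0.19 and -0.18), PSME4 (-0.15, -0.15 and -0.14), PSMG1 (-0.35, -0.35 and -0.34) and UBA6 (-0.012, -0.0098 and -0.0093). For AA147 against day 1 PSMF1, PSMB10 and PSMD9 turned in these fits, and PSMF1, at -0.35, -0.34 and -0.33 in the same order, passed the test there. PSMB2 turned for RP22 against day 1 in the RPKM fits (0.38 and 0.37), whose length for PSMB2 differs between libraries.

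For AA147 against day 1, library totals and the RPKM fits called 0 members higher, with medians of -1.19 for totals and -1.16, -1.14 and -1.16 for the RPKM fits with 0.1, with 1 and without a filter. DESeq2 size factors and the fit of all 9 libraries called 2 higher, PSME1 and PSMD9. Leaving out 1 library each, 35 to 37 members were lower and 1 to 1 higher (medians -0.80 to -0.69), and for RP22 against day 1 41 to 45 were lower and 0 to 0 higher (medians -1.11 to -0.96). The log2 difference of the PSMB9 to PSMB6 ratio between AA147 and day 1 became 0.055, 0.13 and 0.15 without AA147 replicate 1, AA147 replicate 2 and day 1 replicate 1 (range -0.36 to 0.15). The other ratios kept their sign.

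Same-numbered samples did not deviate together in every pair (correlations of 0.19, 0.15 and 0.06 for AA147 with RP22, -0.04, -0.02 and 0.06 for RP22 with day 1 and 0.02, 0.04 and -0.05 for AA147 with day 1). For AA147 with RP22 the correlations of other-numbered samples ran from -0.20 to 0.11. With 3 samples per group these values cannot tell whether same-numbered samples share more than a number. With a replicate block 18 members were higher and 0 lower for AA147 against RP22, 44 were lower for RP22 against day 1, and 36 were lower and 1 higher for AA147 against day 1.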
